A study of Arabidopsis thaliana with 18 samples.

Results

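The 9 genes described here were 8 genes of the circadian clock of Arabidopsis thaliana and the cold-regulated gene COR27. They were chosen by locus: GI (AT1G22770), CCA1 (AT2G46830), LHY (AT1G01060), PRR7 (AT5G02810), PRR9 (AT2G46790), RVE8 (AT3G09600), TOC1 (AT5G61380), ELF3 (AT2G25930) and COR27 (AT5G42900). Splicing events were listed for 5 of the 9 loci and made up 36 of the 6553 distinct events in the tables, 26 of them among the 5403 events listed for every group. PRR7 had 12 events, ELF3 15, TOC1 6, COR27 2 and GI 1. CCA1, LHY, PRR9 and RVE8 had no listed event, so neither their splicing nor their level was analysed here.

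The study concerns differences in alternative splicing between natural accessions. It sequenced polyadenylated RNA of the first leaf, taken when plants were 14 days old, from the reference accession Col-0, from 4 others (Bur-0, Kro-0, Ler-1 and C24), and from their F1 hybrids with Col-0, labelled Col-0 x Bur-0, Col-0 x Kro-0, Col-0 x Ler-1 and Col-0 x C24. All plants stood on Murashige and Skoog medium with 1% sucrose at 22 °C for 16 h in white light of 100 µmol m-2 s-1 and at 18 °C for 8 h in darkness, with no other treatment. Each of the 9 groups had 2 libraries, called biological replicates by the submitters with no word on how plants were pooled, and the time of day of harvest was not given in the sources used here. The levels of clock genes follow the time of day, so a difference in harvest time, in clock phase or in amplitude between groups cannot be told apart with these libraries.

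The plant clock is a loop of transcription factors that repress each other in turn over the day. CCA1 and LHY are Myb factors of the morning, PRR9, PRR7 and TOC1 are pseudo-response regulators that repress CCA1 and LHY from morning to night, and ELF3 is the scaffold of the evening complex. GI acts in the evening in the clock and in flowering, RVE8 is a Myb factor that activates evening genes, and COR27 is a cold- and light-regulated gene whose product represses clock genes. Transcripts of several of these genes are known to be spliced in more than 1 way, and some of the forms carry early stop codons.

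Each event compares the reads of 2 forms. PSI, percent spliced in, is the number of reads in the form that keeps more sequence, which is the retained intron, the shorter of 2 alternative introns or the included exon, as a percentage of all reads of the event with 1 added to that total. The added 1 puts PSI below the share of reads, most where reads are few. Percentages of retention and of site use are PSI unless a share of reads is named. How reads on a retained intron were counted is not given, so retention compares counted reads and is no measure of the share of transcripts. The splice sites on which the results turn are shown here, taken from the RefSeq TAIR10.1 assembly, that is, from Col-0, and read on the strand of the gene. In the single sites the capitals are the first or the last 2 bases of the intron, and in the acceptor pairs they are the 3 bases between both sites.
TOC1 intron 5 donor, chr5:24676972-24676989, plus strand: atccagGTgattgtttct
TOC1 intron 5 acceptor, chr5:24677056-24677082, plus strand: gtaggggttttgcAGcgcaattttctt
TOC1 intron 4 donor, chr5:24676734-24676751, plus strand: aatgagGTgagaaagtat
TOC1 intron 4 acceptor, chr5:24676809-24676835, plus strand: tgcttttgctggtAGtggtctgttgct
COR27 intron 3 acceptor pair, chr5:17198598-17198624, minus strand: tgtgatgttttaaagCAGaggtatcgg
COR27 intron 2 acceptor, upstream, chr5:17198967-17198993, minus strand: tgtttatggtatcAGttcaaggttctt
COR27 intron 2 acceptor, downstream, chr5:17198937-17198963, minus strand: gatggtttctggcAGaagattaatgtg
GI intron 1 outer donor, chr1:8061976-8061993, plus strand: tttcagGTctttcttcta
GI intron 1 inner donor, chr1:8062078-8062095, plus strand: ttcttgGTaaatcactgt
PRR7 intron 3 donor, chr5:640877-640894, minus strand: tcatcaGTgagttctttt
PRR7 intron 3 acceptor, chr5:640744-640770, minus strand: agatttgtgttgcAGtgatgtcatctc
PRR7 intron 4 donor, chr5:640274-640291, minus strand: gctcagGTaagacgaatg
PRR7 cassette acceptor, chr5:640191-640217, minus strand: aaccacaaatgatAGgggtcggatgat
PRR7 cassette first donor, chr5:640144-640161, minus strand: taaatgGTggaagcgctt
PRR7 cassette second donor, chr5:640073-640090, minus strand: aactggGTgaaaatttct
PRR7 intron 4 acceptor, chr5:639982-640008, minus strand: cctttttttgttcAGagctcttggacg
ELF3 intron 2 donor, chr2:11060831-11060848, plus strand: tgccaaGTaagttcacta
ELF3 inner acceptor pair, chr2:11061281-11061307, plus strand: tggatcatgttatagCAGggagggaca
ELF3 inner donor, second, chr2:11061468-11061485, plus strand: aaccagGTagggaaatgt
ELF3 intron 2 acceptor, chr2:11062002-11062028, plus strand: tgtttctcattacAGtcaacaaagagt

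The libraries held 3186952 (C24 replicate 2) to 6134488 (Col-0 x Ler-1 replicate 2) reads over all listed events, and the median event had 62 to 118 reads. Events with at least 10 reads in each library compared were tested on the log2 odds of both forms, and an adjusted p under 0.05 was called a change. The median difference in PSI between both libraries of a group was 2.46 percentage points over the events of the 5 genes. The leaf marker RBCS1A, the small subunit of Rubisco, had 84225 to 177505 RPM (reads per 1000000 of the summed event reads) in each library. The root markers SHR, SCR, WER and RHD6 and the floral markers AG, AP3 and PI had no listed event and so no value. The phloem marker SUC2 and the xylem marker IRX3 had none either. A missing event does not show that a gene was silent, so the markers could not exclude other tissues.

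TOC1 differed between Bur-0 and Col-0 in the retention of 1 intron. In Bur-0 about 1 in 2 reads over intron 5 came from the retained form, where Col-0 removed this intron almost completely, and the hybrid lay between both parents. TOC1 lies at chr5:24674963-24678550 on the plus strand, and its intron 5, an annotated intron of 93 nt at chr5:24676978-24677070, was listed for Col-0, Bur-0 and Col-0 x Bur-0. It was not in the tables of the other groups and gives no value there.

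In Col-0, 5 of 292 and 4 of 221 reads came from the retained intron 5, a PSI of 1.71% and 1.80%. In Bur-0 the retained form had 97 of 184 and 95 of 187 reads, a PSI of 52.4% and 50.5%. In Col-0 x Bur-0 it had 47 of 165 and 30 of 139 reads, a PSI of 28.3% and 21.4%. The 3 groups did not overlap. Retention in Bur-0 exceeded Col-0 by 49.7 percentage points (51.5% against 1.75%, n = 2 and 2), a difference in log2 odds of 5.87 ± 0.40 (SE, edgeR quasi-likelihood test, adjusted p = 3.28e-05). In this comparison over the full list for Col-0 and Bur-0, 507 of 5865 events (8.64%) were called and 2 of the 26 tested events of the 5 genes, the other one being the GI donor below. Calls in this list were 301 higher and 206 lower in Bur-0, beside 234 and 226 in the test of events listed for every group. Intron 5 may be listed only because it was retained in Bur-0, and its test was added after the data were seen. The p-value is thus no independent support. Without each of the 4 libraries in turn the adjusted p was up to 0.0165, but 1 group then had 1 library, which was assumed to vary like the other group.

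The hybrid's mean of 24.9% lay beside a mean of both parents' percentages of 26.6%. On the log2 odds scale, where the midpoint of 1.75% and 51.5% lies lower than on the percent scale, the hybrid was above the mid-parent by 1.26 ± 0.38, which did not pass the test (edgeR, adjusted p = 0.291). Of the 5818 events of this comparison 11 (0.189%) were called and 410 had an unadjusted p under 0.05. In the Col-0 reference, reading through the kept intron 5 would meet a TAA stop after 265 codons of the 618 of TOC1.

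No other TOC1 event was called in Bur-0. Intron 4, 84 nt at chr5:24676740-24676823, was retained in every group at group means of 21.6% to 33.2%. Col-0 had a PSI of 41.0% and 25.5%, Bur-0 of 26.2% and 31.4% and their hybrid of 37.7% and 23.2%, so both Bur-0 libraries lay between those of Col-0. It was 24.3% and 18.9% in Kro-0, 25.7% and 29.3% in C24 and 30.4% and 31.1% in Ler-1, with no call in any accession. Of the other hybrids, Col-0 x Kro-0 had 36.7% and 23.2%, Col-0 x Ler-1 had 29.0% and 21.8%, and Col-0 x C24 had 22.9% and 24.4%. Keeping intron 4 would place a TAA stop after 206 codons.

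Intron 1, 317 nt at chr5:24675673-24675989, was listed as retained for 5 groups. Col-0 had a PSI of 10.9% and 16.9%, Bur-0 of 10.8% and 11.9% and their hybrid of 10.7% and 12.5%. It was 9.89% and 10.9% in Ler-1 and 10.1% and 8.33% in Col-0 x Ler-1. All 10 of these libraries lay between 8.33% and 16.9%. Intron 3, 150 nt at chr5:24676422-24676571, was retained at 17.3% and 4.76% in Col-0, where the libraries had 45 of 259 and 10 of 209 reads, at 11.9% and 15.2% in Bur-0 and at 16.4% and 6.15% in the hybrid. The spread within Col-0 and within the hybrid was larger than any difference between the 3 groups. A donor 13 nt inside intron 1, which is not annotated, was used at 0% to 7.69% per library and was not called. The 304 nt that it leaves of intron 1 were retained at 64.3% to 93.3% per library in the 5 groups for which this form was listed.

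**Figure D1:**
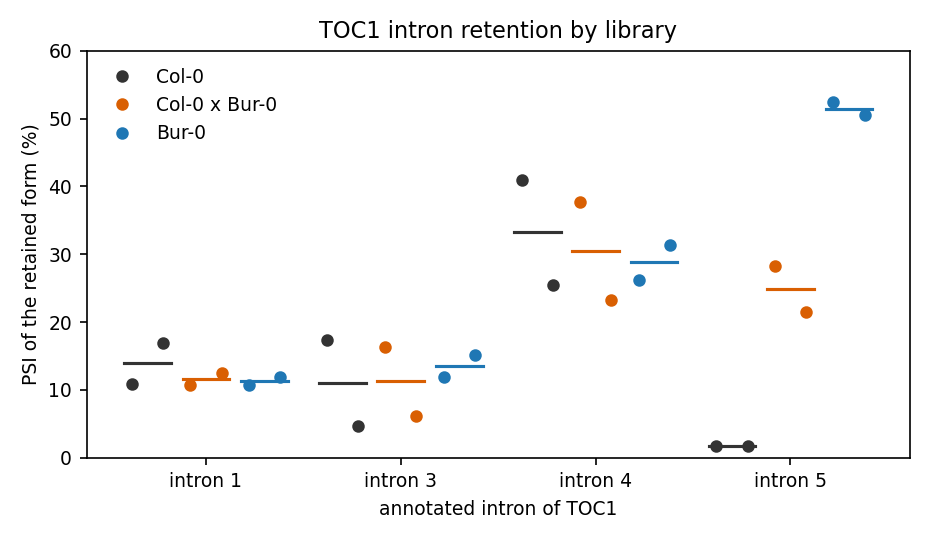
Percent spliced in (PSI, y axis) of the retained form of TOC1 introns 1, 3, 4 and 5 in Col-0, Col-0 x Bur-0 and Bur-0; each point is 1 library and each line the mean of 2. Intron 5 rises from 1.75% in Col-0 to 24.9% in the hybrid and 51.5% in Bur-0, while the points of introns 1, 3 and 4 overlap between groups.

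COR27 differed in Ler-1 in which of 2 acceptors 3 nt apart ended intron 3. COR27 lies at chr5:17197641-17199910 on the minus strand, and its intron 3 is annotated both as 83 nt (chr5:17198610-17198692) and as 86 nt (chr5:17198607-17198692). PSI here counts the 83 nt intron, which keeps the 3 bases printed in capitals above. These bases add 1 codon, so the open reading frame counts 246 codons with them and 245 without, in the Col-0 reference.

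The 3 bases were kept in 342 of 454 and 235 of 294 reads in Col-0, a PSI of 75.2% and 79.7%. In Ler-1 they were kept in 74 of 297 and 111 of 443 reads, a PSI of 24.8% and 25.0%. The other accessions lay with Col-0: PSI was 75.5% and 76.4% in C24, 69.6% and 77.6% in Bur-0, and 73.7% and 73.9% in Kro-0. The Kro-0 libraries kept the bases in 14 of 18 and 17 of 22 reads, a share of reads of 77.8% and 77.3%. Ler-1 differed from Col-0 by -52.5 percentage points (24.9% ± 0.12 against 77.4% ± 3.18, SD, n = 2 and 2), and by a log2 odds of -3.37 ± 0.33 (SE, edgeR quasi-likelihood test, adjusted p = 1.76e-07). It was the 1 call among the 22 tested events of the 5 genes in Ler-1, where 358 of all 5136 tested events (6.97%) were called.

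The direct tests of Ler-1 against the other 3 accessions passed as well. PSI was higher than in Ler-1 by 3.11 on the log2 odds scale in Bur-0 (edgeR, adjusted p = 1.19e-06), by 3.26 in C24 (edgeR, adjusted p = 1.70e-07) and by 3.34 in Kro-0 (edgeR, adjusted p = 2.64e-04), in comparisons that called 7.56%, 6.1% and 4.64% of all events. The hybrid Col-0 x Ler-1 kept the 3 bases in 347 of 589 and 309 of 553 reads, a PSI of 58.8% and 55.8% that lay between both parents. Its mean of 57.3% stood beside a mid-parent of 51.2%, and the log2 odds differed from the mid-parent by 0.33 ± 0.32 (edgeR, adjusted p = 0.903). Of the other hybrids, Col-0 x Bur-0 had 76.7% and 79.2%, Col-0 x C24 had 76.0% and 73.8%, and Col-0 x Kro-0 had 64.2% and 87.5%. The last of these libraries had 7 reads, all of which kept the 3 bases.

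The second event of COR27 was an acceptor pair 30 nt apart at the end of intron 2. The annotated intron of 88 nt (chr5:17198979-17199066) had a PSI of 88.0% to 99.0% per library, and the longer one of 118 nt, which is not annotated, took the other reads. Group means were 92.0% to 98.3% and no accession was called, with the smallest adjusted p in Bur-0 (edgeR, 0.216). The longer intron removes 10 codons and leaves 235.

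GI had no read from a minor donor in Bur-0. GI lies at chr1:8061751-8067790 on the plus strand, and its intron 1, before the start codon, is annotated as 209 nt (chr1:8061982-8062190). An inner donor, which is not annotated, leaves an intron of 107 nt (chr1:8062084-8062190). The inner donor had 8 of 257 and 5 of 243 reads in Col-0, a PSI of 3.10% and 2.05%. In Bur-0 it had 0 of 431 reads over both libraries, which allows a share of up to 0.696%, the limit that 3 reads would give and one that covers counting error only. Ler-1 had the highest mean, 27 of 470 reads and a PSI of 5.66% ± 0.44 (SD, n = 2), and C24 had 6 of 230 reads.

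In Kro-0 all 6 reads of the inner donor came from 1 library, a PSI of 8.70%, with 0% in the other. The hybrids had 3 of 420 reads in Col-0 x Bur-0, 8 of 362 in Col-0 x C24, 8 of 253 in Col-0 x Kro-0 and 19 of 510 in Col-0 x Ler-1. The difference between Bur-0 and Col-0 had an adjusted p of 0.0318 (edgeR quasi-likelihood test), the 1 call among the 22 tested events of the 5 genes where 460 of all 5137 (8.95%) were called. It was lost without any 1 of the 4 libraries, with adjusted p from 0.0655 to 0.227, with DESeq2 (0.0654) and with limma on PSI (0.742). Ler-1 was not called against Col-0 (edgeR, adjusted p = 0.388), and the direct test of Bur-0 against Ler-1 gave 0.0024 and that of Bur-0 against Kro-0, where 6.18% of all events were called, gave 0.0318.

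**Figure D2:**
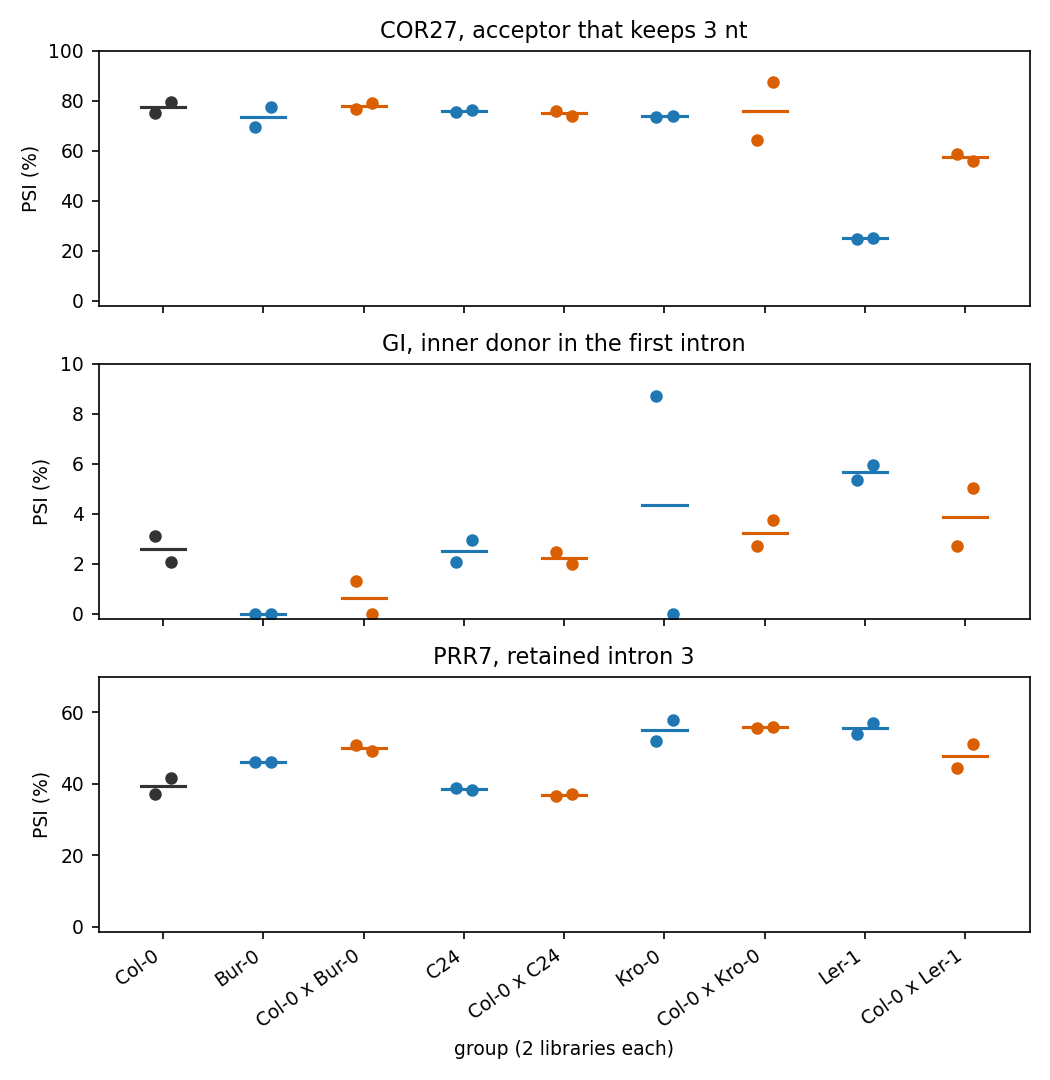
Percent spliced in (PSI, y axis) in the 9 groups for the COR27 acceptor that keeps 3 nt, the inner donor of GI intron 1 and the retained PRR7 intron 3; each point is 1 library, each line the mean of 2, and the y ranges differ between panels. Ler-1 stands at 24.9% for COR27 with its hybrid at 57.3%, Bur-0 is at 0 for GI, and Kro-0 and Ler-1 have the highest accession means for PRR7 at 55.0% and 55.5%.

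PRR7, at chr5:637681-642030 on the minus strand, had 12 events over 2 introns and 2 exon stretches, and none was called against Col-0. Its intron 3, 133 nt at chr5:640756-640888, was retained at 36.6% or more in every library. PSI was 37.1% and 41.5% in Col-0, 38.9% and 38.3% in C24, 46.2% and 46.0% in Bur-0, 54.0% and 57.0% in Ler-1 and 52.1% and 57.9% in Kro-0. Kro-0 and Ler-1 lay above Col-0, C24 and Bur-0 in each library. Keeping intron 3 would place a TGA stop after 172 of the 727 codons.

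Kro-0 stood 15.7 percentage points above Col-0, a difference in log2 odds of 0.92 ± 0.31 (SE, edgeR, adjusted p = 0.0970), and Ler-1 16.2 points, a difference of 0.95 ± 0.31 (edgeR, adjusted p = 0.0665). Neither passed the threshold, while limma on PSI called both, with adjusted p of 0.0222 and 0.0181. Of the 22 tested events of the 5 genes 0 were called in Kro-0 by edgeR, beside 263 of all 5063 (5.19%), and 0 in C24, beside 303 of 5033 (6.02%). The hybrids had 50.7% and 49.2% in Col-0 x Bur-0, 36.6% and 37.2% in Col-0 x C24, 55.7% and 55.9% in Col-0 x Kro-0 and 44.3% and 51.3% in Col-0 x Ler-1.

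Intron 4 of PRR7, 292 nt at chr5:639994-640285, held a cassette exon of 118 nt at chr5:640085-640202. Summed over the 18 libraries, 6344 reads joined both flanking exons directly, 1381 entered the cassette and 514 left it from its second donor. A further 107 reads left it from a first donor inside it, which keeps 47 nt of the exon. The first donor has a GT and ends the reading frame after 272 codons with TGA, the second after 281 with TAG, and keeping the whole intron 4 after 304 with TAA.

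More reads entered the cassette than left it, in each of the 18 libraries. The ratio of entry reads to reads from the second donor was 1.81 to 4.04 with a median of 2.63, and with both donors counted it was 1.62 to 3.11 with a median of 2.24. The share of inclusion was therefore 12.5% to 22.9% (median 18.1%) by the entry junction. By the exit junction of the second donor alone, it was 5.17% to 9.60% (median 7.07%). The deposited exon skipping event adds both junctions, as a match of its counts in 18 of 18 libraries showed, and gives a PSI of 17.8% to 28.4%. Counting 1 junction for each inclusion gives 9.80% to 16.6% (median 12.7%).

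The introns around the cassette were retained to unequal degrees. The whole of intron 4 was retained at 10% to 22.6% per library, the entry intron of 83 nt at 11.2% to 30.7% and the exit intron of 91 nt at 56.7% to 82.4%. The intron from the first donor, 162 nt, was retained at 83.0% to 94.8%. These introns lie inside intron 4, so their values share sequence with it and with each other. Of the reads that left the cassette, a share of 65.7% to 93.9% per library used the second donor.

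Of the other PRR7 events, a stretch of 82 nt (chr5:638699-638780) and one of 87 nt (chr5:640929-641015) inside exons were removed as unannotated introns in few reads. The first had a PSI of 98.1% to 99.7% per library and the second of 95.9% to 99.3%. The PRR7 event with the widest range of group means among them was the choice of cassette donor, at a PSI of 68.5% to 87.7%.

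**Figure D3:**
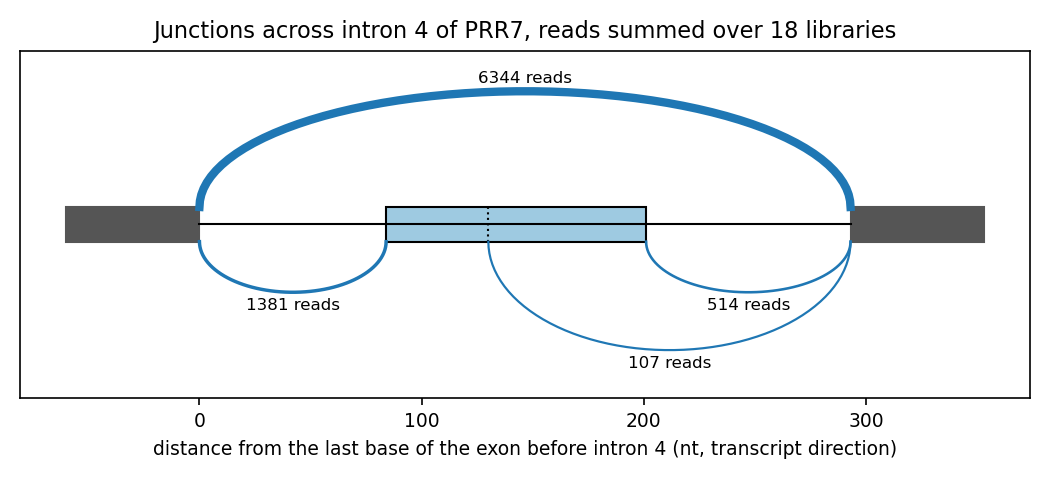
Junctions over PRR7 intron 4, with the distance in nt from the last base of the exon before it on the x axis and arcs labelled with reads summed over the 18 libraries; the blue box is the cassette exon and the dotted line its first donor. The skipping junction has 6344 reads, the entry 1381, the exit from the second donor 514 and that from the first donor 107.

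ELF3, at chr2:11058944-11063324 on the plus strand, had alternative sites inside its intron 2, 1180 nt at chr2:11060837-11062016. Over the 18 libraries 877 reads joined both flanking exons. Inner acceptors ending at 11061155, 11061295 and 11061298 had 12, 26 and 122 reads, and inner donors at 11061334 and 11061474 had 58 and 85. The last 2 acceptors are the pair 3 nt apart shown above. The inner acceptors together took 15.4% and the inner donors 14.0% of reads. From the last inner acceptor to each inner donor, an exon inside the intron would have 35 or 175 nt. The counts of separate junctions do not show which acceptor and donor were used in the same transcript.

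C24 had the lowest shares, with 4 reads at the inner acceptors beside 94 across the intron (4.08%) and 5 at the inner donors (5.05%). Col-0 had 17.6% and 13.1%, Bur-0 15.1% and 15.1%, Kro-0 23.1% and 21.6%, and Ler-1 18.2% and 11.1%. In the hybrids the inner acceptors took 9.87% in Col-0 x C24, 12.2% in Col-0 x Kro-0, 19.1% in Col-0 x Bur-0 and 19.6% in Col-0 x Ler-1. The inner donors took 14.9%, 8.45%, 16.5% and 19.1% in the same order. For the donors, Col-0 x C24 thus lay above both parents and Col-0 x Kro-0 below both. No ELF3 event was called against Col-0. For the second inner donor, C24 had 0 of 57 and 1 of 38 reads, and Kro-0 had 2 of 24 and 7 of 25, a difference in log2 odds of -4.19 ± 1.19 (SE, edgeR, adjusted p = 0.0400) in a comparison that called 4.91% of all events.

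The exon forms would end the ELF3 frame with TGA after 365 codons with the first inner donor and 407 with the second, beside 695 codons of the full protein. Retention of the whole intron 2 was listed in Ler-1, at 21.5% and 25.7%, and in Col-0 x Ler-1, at 19.4% and 24.2%, and would end the frame after 339 codons with TAA. The 5 other retained-intron events of ELF3, all listed for these 2 groups, lay at 59.0% to 96.6% per library. The 4 ELF3 events that compare inner sites with each other had from 0 to 24 reads per library and were too shallow to be tested.

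The intron lengths that the tables give for the accessions' own assemblies were close to those of Col-0. Intron 1 of GI was 208 nt in Bur-0, C24 and Kro-0 and 207 nt in Ler-1, with the inner form at 107 nt in each. The COR27 pair of 86 and 83 nt in Col-0 was 85 and 82 nt in Ler-1, and TOC1 intron 5 was 93 nt in Bur-0. The sequences of the other accessions were not used here.

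Read levels were compared next. The level of a gene is the number of reads, of both forms together, at its deepest event, in reads per 1000000 (RPM) of the sum over the 1 event taken for each gene, after TMM scaling. The events counted were the donor pair of GI, the full intron of ELF3 with its last inner acceptor, the 82 nt stretch of PRR7, the 3 nt acceptor pair of COR27 and the donor pair in TOC1 intron 1. The level depends on the event and compares groups, not genes. In leaf tissue in bulk, fewer cells of a type and less RNA per cell cannot be told apart.

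COR27 varied most, by 27.0-fold between the lowest and the highest group mean, and was lowest in Kro-0. It had 185 and 114 RPM in Col-0, 12 and 12.6 in Kro-0, 65.7 and 85.5 in Bur-0, 143 and 196 in Ler-1 and 314 and 351 in C24. Kro-0 was lower than Col-0 by 11.9-fold (log2 -3.57 ± 0.28, SE, edgeR quasi-likelihood test, adjusted p = 1.28e-06), and C24 was higher by 2.24-fold (log2 1.17 ± 0.21, edgeR, adjusted p = 0.0017). Bur-0 was lower by 1.94-fold (log2 -0.96 ± 0.22, edgeR, adjusted p = 0.0083), a call lost without Col-0 replicate 1 (log2 -0.59, adjusted p = 0.0823) and without Bur-0 replicate 1 (0.130). Ler-1 and Col-0 overlapped (edgeR, adjusted p = 0.584).

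In the hybrids COR27 had 56.8 and 34.3 RPM in Col-0 x Bur-0, 253 and 226 in Col-0 x C24, 29.4 and 3.74 in Col-0 x Kro-0, and 302 and 207 in Col-0 x Ler-1. In order of the group means, Kro-0 and Col-0 x Kro-0 overlapped, followed without overlap by Col-0 x Bur-0 and Bur-0. Col-0 and Ler-1 overlapped, as did Col-0 x Ler-1 and Col-0 x C24, and C24 stood above all other groups.

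TOC1 was also lowest in Kro-0. It had 98.0 and 61.5 RPM in Col-0, 30.7 and 21.8 in Kro-0, 83.5 and 86.0 in Bur-0, 114 and 103 in Ler-1 and 132 and 116 in C24. Kro-0 was lower than Col-0 by 3.01-fold (log2 -1.59 ± 0.23, SE, edgeR, adjusted p = 4.10e-04). C24 was higher by 1.57-fold (log2 0.65 ± 0.20, edgeR, adjusted p = 0.0365), a call that was lost with DESeq2 (0.0619), without TMM scaling (0.0907) and without Col-0 replicate 2, C24 replicate 1 or C24 replicate 2, with adjusted p up to 0.241. Bur-0, whose intron 5 was retained in about 1 in 2 reads, had a level close to that of Col-0 at the event in intron 1 (log2 0.11 ± 0.20, edgeR, adjusted p = 0.767).

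The TOC1 levels of the hybrids were 73.5 and 64.5 in Col-0 x Bur-0, 129 and 95.7 in Col-0 x C24, 66.7 and 32.6 in Col-0 x Kro-0 and 167 and 134 in Col-0 x Ler-1. Between the lowest and the highest group mean TOC1 spanned 5.72-fold. Neighbours in the order of means overlapped, except Kro-0 below Col-0 x Kro-0, Bur-0 below Ler-1, and C24 below Col-0 x Ler-1.

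GI had 105 and 94.1 RPM in Col-0, 45.4 and 40.8 in Kro-0, 98.3 and 112 in Bur-0, 89.5 and 126 in Ler-1 and 64.9 and 97.5 in C24. Both Kro-0 libraries lay below those of the other accessions, and Kro-0 was lower than Col-0 by 2.28-fold (log2 -1.19 ± 0.21, SE, edgeR, adjusted p = 0.0019). ELF3 had 32.2 and 27.1 in Col-0 and 17.4 and 13.2 in Kro-0, lower by 1.92-fold (log2 -0.94 ± 0.28, edgeR, adjusted p = 0.0369). That call was lost with DESeq2 (0.0844) and without Col-0 replicate 1 (0.125), Kro-0 replicate 1 (0.0764) or Kro-0 replicate 2 (0.217). ELF3 had 39.9 and 28.4 in C24, 20.6 and 22.7 in Bur-0 and 36.6 and 23.9 in Ler-1, with no call.

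The hybrids of GI had 129 and 84.8 RPM in Col-0 x Bur-0, 85.3 and 92.5 in Col-0 x C24, 83.0 and 56.7 in Col-0 x Kro-0 and 150 and 81.2 in Col-0 x Ler-1. Those of ELF3 had 24 and 22.1, 37.1 and 36.3, 27.7 and 12.3, and 43.1 and 32.6 in the same order. Between the lowest and the highest group mean GI spanned 2.68-fold and ELF3 2.47-fold. For GI, Kro-0 lay below all other groups, while for ELF3 both Kro-0 libraries lay between those of Col-0 x Kro-0. The remaining groups of both genes mostly overlapped.

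PRR7 varied least, by 1.79-fold between group means. It had 498 and 565 RPM in Col-0, 425 and 356 in C24, 603 and 605 in Bur-0, 550 and 510 in Ler-1 and 639 and 692 in Kro-0. Hybrid levels were 627 and 667 in Col-0 x Bur-0, 432 and 442 in Col-0 x C24, 665 and 735 in Col-0 x Kro-0 and 512 and 713 in Col-0 x Ler-1. Kro-0, where the other 4 genes were lower, had the highest PRR7 mean of the accessions, but the difference from Col-0 did not pass (log2 0.34 ± 0.13, edgeR, adjusted p = 0.108). C24 was lower than Col-0 by 1.35-fold (log2 -0.44 ± 0.14, edgeR, adjusted p = 0.0410), a call lost with the sum of all events as the level (0.0596) and without Col-0 replicate 2 or C24 replicate 2, with adjusted p up to 0.248.

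Counted over the 5 genes, 4 were called lower in Kro-0, where 192 of all 2599 genes (7.39%) were lower and 393 (15.1%) were called. In C24 2 were called higher and 1 lower beside 410 (15.8%) called, in Bur-0 1 was called lower beside 382 (14.7%), and in Ler-1 none was called beside 361 (13.9%). By direct tests between accessions, GI, TOC1 and COR27 were lower in Kro-0 than in Bur-0, C24 and Ler-1, and ELF3 lower than in C24 and Ler-1. Direct tests between accessions, of levels and of splicing, were rerun only with a replicate block. They were not rerun without single libraries, with DESeq2 or without TMM scaling. These comparisons of Kro-0 called 19.7% (Bur-0), 21.8% (C24) and 24.3% (Ler-1) of all genes. PRR7 was lower in C24 than in Bur-0, Kro-0 and Ler-1, and COR27 differed between each 2 of Bur-0, C24 and Ler-1, in comparisons that called 22.3% (Bur-0 and C24), 29.0% (Bur-0 and Ler-1) and 18.5% (C24 and Ler-1).

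The scaling of the libraries bears on the levels in Kro-0. Without TMM scaling the median log2 difference of all genes from Col-0 moved to -0.27 in Kro-0, -0.16 in Bur-0, -0.14 in Ler-1 and -0.10 in C24, from 0.00 or 0.01 with it. The split of all calls then moved from 201 higher and 192 lower to 66 and 517 in Kro-0, from 181 and 201 to 96 and 314 in Bur-0, from 210 and 200 to 135 and 268 in C24 and from 184 and 177 to 106 and 272 in Ler-1. The log2 differences of Kro-0 became -3.85 for COR27, -1.87 for TOC1, -1.47 for GI and -1.22 for ELF3, each called, and 0.06 for PRR7, not called. Among values not called under either scaling, the sign turned for GI (-0.07) and TOC1 (-0.06) in Bur-0 and for PRR7 (-0.13), ELF3 (-0.10) and GI (-0.02) in Ler-1, so the levels in the text are relative to the TMM scale.

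**Figure D4:**
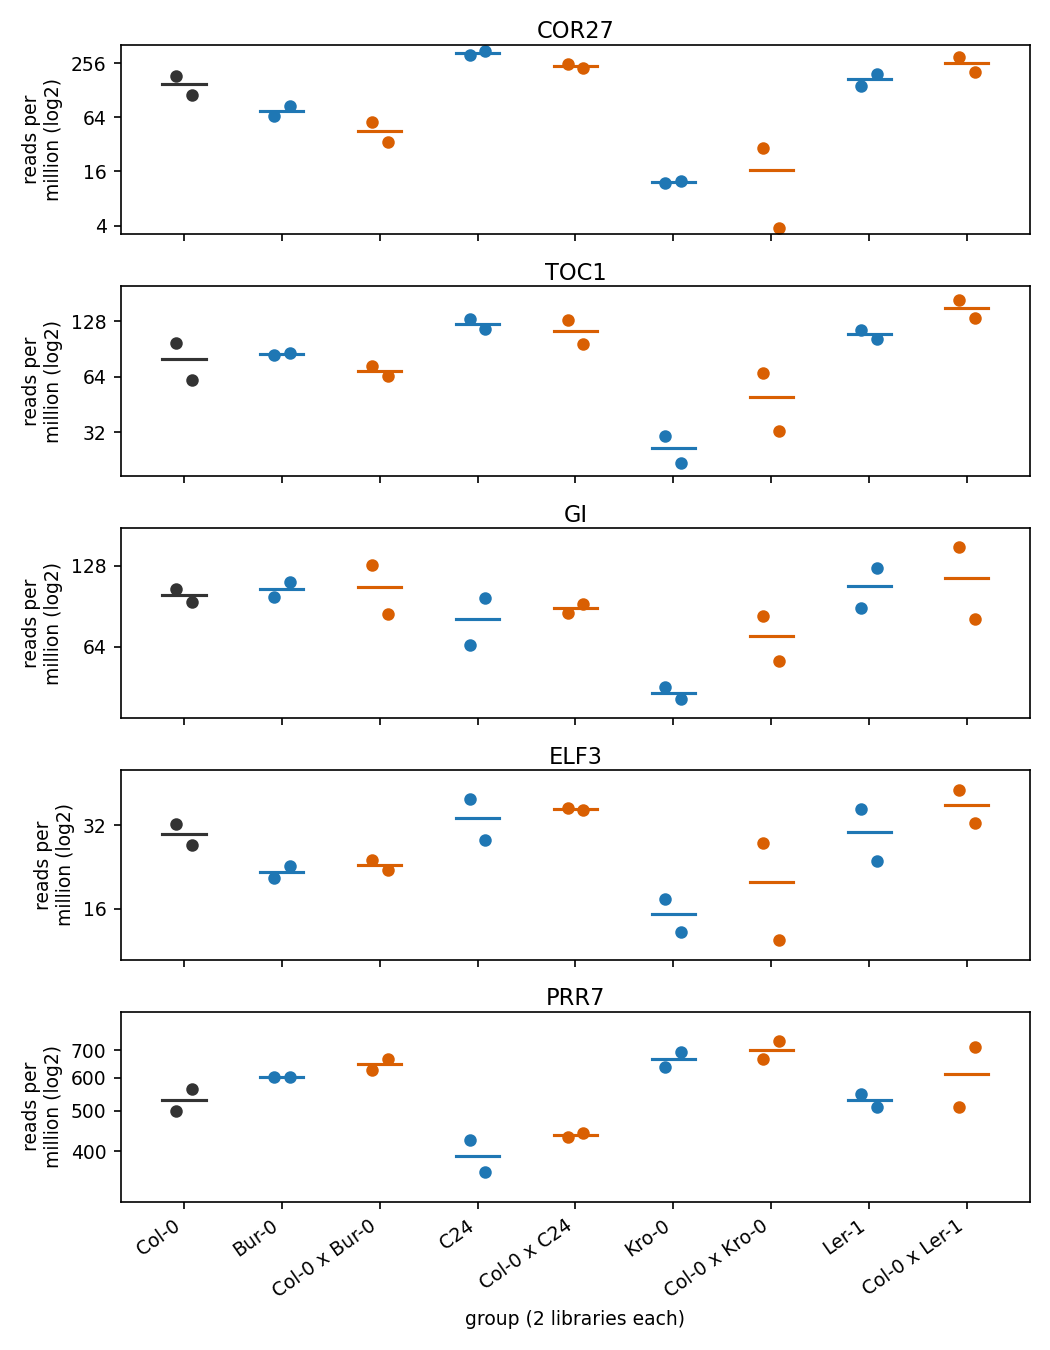
Read level of the 5 genes (RPM, log2 y axis) in the 9 groups; each point is 1 library and each line the mean of 2. Kro-0 is the lowest group mean for COR27 (12.3), TOC1 (26.3), GI (43.1) and ELF3 (15.3), while PRR7 stands at 665 there.

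None of the 5 genes departed from the mid-parent level in a hybrid by the test. The largest differences were those of COR27, at 45.5 against a mid-parent of 106 RPM in Col-0 x Bur-0 (log2 -1.23 ± 0.40, SE, edgeR, adjusted p = 0.353) and at 16.6 against 42.9 in Col-0 x Kro-0 (log2 -1.39 ± 0.49, edgeR, adjusted p = 0.151). In Col-0 x Ler-1, COR27 had 254 against 159 (log2 0.67 ± 0.34, edgeR, adjusted p = 0.315) and TOC1 150 against 92.9 (log2 0.69 ± 0.23, edgeR, adjusted p = 0.120). Of all 2600 genes, 8 (0.308%) were called in Col-0 x Bur-0, 1 (0.0385%) in Col-0 x C24, 61 (2.35%) in Col-0 x Kro-0 and 65 (2.5%) in Col-0 x Ler-1. With COR27 in Col-0 x Kro-0, the libraries of 29.4 and 3.74 RPM stood far apart, and without the first of them the difference was called.

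Splicing in the hybrids likewise gave 0 calls among the events of the 5 genes. Over all events listed for every group, edgeR called 5 of 5101 (0.098%) in Col-0 x Bur-0, 3 of 5023 (0.0597%) in Col-0 x C24, 4 of 5030 (0.0795%) in Col-0 x Kro-0 and 7 of 5118 (0.137%) in Col-0 x Ler-1, with 330, 369, 365 and 403 events at an unadjusted p under 0.05. DESeq2 and limma on PSI also called 0 events of these genes. Among events listed for every group, the smallest adjusted p by edgeR was 0.515, for the first inner acceptor of ELF3 in Col-0 x Ler-1. It stood at 5.05% against 0.875% in the mid-parent. TOC1 intron 5, tested in the full list for Col-0, Bur-0 and their hybrid, had a smaller one (edgeR, adjusted p = 0.291). Both large differences between accessions, in TOC1 and in COR27, thus had hybrids between their parents and no departure from the mid-parent by this test.

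Other clock genes were taken from a fixed list of 30, of which 11 had a listed event and 10 a level in every group: CKB3, CKB4, DET1, FKF1, LNK2, LUX, RVE4, RVE6, TIC and XCT. In Kro-0 2 of the 10 rose and 2 fell against Col-0, beside 15.1% of all genes called. FKF1, a blue-light receptor of the F-box family that acts with GI, fell from 125 to 41.2 RPM (3.0-fold, log2 -1.58 ± 0.17, edgeR, adjusted p = 2.52e-05), and LUX, the DNA-binding member of the evening complex, from 34.7 to 9.74 (3.54-fold, log2 -1.82 ± 0.28, edgeR, adjusted p = 5.62e-04). LNK2, a coactivator that works with RVE8, rose from 102 to 224 (2.23-fold, log2 1.15 ± 0.16, edgeR, adjusted p = 2.85e-04), and RVE4, a relative of RVE8, rose by 0.46 on the log2 scale (edgeR, adjusted p = 0.0432), a call that was lost without TMM scaling (log2 0.18, adjusted p = 0.433).

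In C24, with 15.8% of all genes called, 3 of the 10 were called. FKF1 rose (log2 0.47, edgeR, adjusted p = 0.0448, without TMM scaling 0.135), while RVE4 (log2 -0.84, 0.0023) and LNK2 (log2 -0.73, 0.0127) fell. In Ler-1, with 13.9% of all genes called, RVE4 (log2 -1.02, edgeR, adjusted p = 5.62e-04), LNK2 (log2 -0.84, 0.0047) and TIC (log2 -0.40, 0.0466) fell and none rose. In Bur-0, with 14.7% of all genes called, 1 of the 10 rose, FKF1 (log2 0.59, edgeR, adjusted p = 0.0149, without TMM scaling 0.0765). The median log2 difference over the list was 0.04 in Kro-0 beside 0.01 over all genes, -0.25 in C24 beside 0.01, 0.07 in Ler-1 beside 0.00 and 0.00 in Bur-0 beside 0.00. In the hybrid Col-0 x Kro-0 RVE4 lay above the mid-parent (log2 0.58, edgeR, adjusted p = 0.0322). Without TMM scaling LUX was also called lower in Bur-0 (edgeR, adjusted p = 0.031) and Ler-1 (0.0401), and TIC in Kro-0 (0.0159). None of the list's 16 or 17 tested events was called in any accession by edgeR, where 8.95% (Bur-0), 6.97% (Ler-1), 6.02% (C24) and 5.19% (Kro-0) of all events were called, so a count of 0 is not a result about the list.

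**Figure D5:**
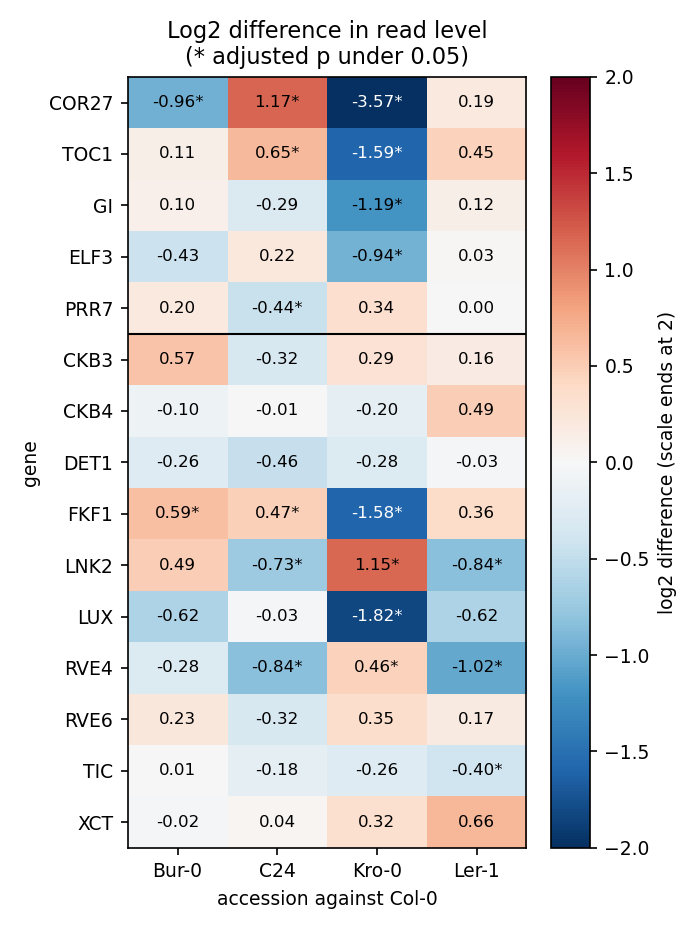
Log2 difference in read level from Col-0 (colour scale) for the 5 genes and the 10 other clock genes with a level, in rows, and the 4 accessions in columns; an asterisk marks an adjusted p under 0.05. In the Kro-0 column COR27 (-3.57), LUX (-1.82), TOC1 (-1.59), FKF1 (-1.58), GI (-1.19) and ELF3 (-0.94) are lower, and LNK2 (1.15) is higher.

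Of 10 genes of clock output and light input 5 had a level. GRP7, an RNA-binding protein under clock control, rose in C24 from 9806 to 16357 RPM (log2 0.75, edgeR, adjusted p = 0.0082) and in Ler-1 (log2 0.63, 0.0220) and fell in Kro-0 to 5888 (log2 -0.72, 0.0106). Its relative GRP8 fell in Kro-0 (log2 -0.63, edgeR, adjusted p = 0.0051) and lay below the mid-parent in Col-0 x Kro-0 (log2 -0.56, 0.0360). In this list 1 of 18 tested events was called in Bur-0 and in Ler-1, close to the 8.95% and 6.97% of all events called there. In both it was an acceptor of PIF5, a growth-promoting bHLH factor listed as PIL6 in RefSeq. Its PSI was 10.01% ± 1.69 (SD, n = 2) in Col-0 and 0% in both libraries of Bur-0 (edgeR, adjusted p = 2.73e-06) and of Ler-1 (2.66e-05).

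Of 10 genes of the cold response 1 could be tested, ICE2 (SCRM2 in RefSeq), a bHLH factor. Its intron retention fell in Ler-1, from 29.3% ± 9.49 to 10.6% ± 2.48 (SD, n = 2 and 2, edgeR, adjusted p = 0.0258), and its level was not called. Of 7 factors known to act on the splicing of clock genes, SKIP and SR45 could be tested, and 0 of their 2 events and levels were called in any accession. These comparisons called 5.19% (Kro-0) to 8.95% (Bur-0) of all events and 13.9% (Ler-1) to 15.8% (C24) of all genes. With so few tests a count of 0 is not a result about these factors.

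The genes whose level was most like that of COR27 over the 18 libraries were AT5G23240 (Pearson r = 0.95 on the log2 scale), BBX8 (0.95) and TAG1 (0.93). For TOC1 they were TAG1 (0.95), BBX8 (0.94) and FKF1 (0.93). For retention of PRR7 intron 3, the most like events lay in PnsB5 (Pearson r = 0.83 of PSI), EMB3119 (0.82) and ML3 (0.78). Per library, the PSI spanned only 97.7% to 99.9% in PnsB5 and 98.5% to 99.9% in EMB3119, and 79.4% to 98.2% in ML3. For the exit intron of the PRR7 cassette the most like events lay in AT4G30310, AT3G01490 and RS40 (0.81 each). For the second inner donor of ELF3 they lay in DYL1 (0.79), AT5G24210 (0.78) and ABCI14 (0.78). These are descriptions over 9 groups of 2 libraries, which share genotype and scaling.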

How the data were processed

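Per the labels' protocols, polyadenylated RNA was bound to oligo(dT) beads, reverse transcribed from random hexamers, nebulized and made into standard Illumina libraries; no strand is stated, so reads of overlapping or antisense genes cannot be told apart. The submitters' processing notes name TAIR10, HISAT2 and edgeR 3.0.8 without their roles. The deposited files give, for each event, the counts of 2 forms made by the authors and the authors' PSI as a fraction, which equalled the form 2 reads over the total of the event with 1 added. The rule by which reads were counted on a retained intron is not given in the sources used here. Coordinates were checked on TAIR10.1, where 3240 of 3283 alternative site events (98.7%) had GT or GC at the donor and AG at the acceptor.

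Counts were tested with edgeR 4.0.16 (quasi-likelihood, R 4.3.3), with a term per library and form by group, over events listed for all groups with at least 10 reads in each library compared. Accessions were fitted in 10 libraries and hybrids in all 18. TOC1 intron 5 is not listed for all groups and was tested in the full list of Col-0, Bur-0 and their hybrid, with the libraries of the groups compared, an alternative added after the data were seen. P-values were adjusted by Benjamini-Hochberg over all events or genes of a comparison. Read levels took, per gene, the event with the highest mean total, with TMM scaling and filterByExpr. Standard errors are the effect divided by the square root of its F statistic. The tests were also run on simulated counts with planted changes and a fixed spread. That run does not show how they perform at the spread of these libraries. Alternatives used DESeq2 1.42.0, limma 3.58.1 on PSI, other depth minima, no TMM, no low count filter, sums of all events, a replicate block and each library left out, where the lone library of its group is assumed to vary like the others. With 2 libraries a group, p-values rest on the spread between replicate libraries. That spread was pooled over the groups of a fit and moderated over all its events or genes. The members and gene lists were chosen with earlier results of these data known. All member events are described, with up to 12 genes of the lists by smallest adjusted p and the 3 most correlated genes or events.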

Additional observations from a re-analysis of the deposited data

Results flagged for a closer look

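The values here are differences between 2 accessions, the first minus the second, and so between their departures from Col-0; each passed the edgeR quasi-likelihood test of the difference itself (adjusted p under 0.05, n = 2 and 2), while groups of 2 libraries allow no test for a library far from the others. The share of all events or genes called in the same comparison follows each set. The only alternative run for these differences was a replicate block.

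On the log2 odds scale, the COR27 acceptor that keeps 3 nt was used more in Bur-0 (3.11), C24 (3.26) and Kro-0 (3.34) than in Ler-1, beside 7.56%, 6.1% and 4.64% of all events called. The inner donor of GI was lower in Bur-0 than in Kro-0 by a fitted -6.24 (adjusted p = 0.0318, edgeR, 6.18% of events called) and than in Ler-1 by -6.63 (adjusted p = 0.0024). Bur-0 had 0 reads there, so these fitted values are no bounds. The second inner donor of ELF3 differed by -4.19 between C24 and Kro-0 (adjusted p = 0.0400, edgeR, 4.91%).

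On the log2 scale of read levels, COR27 differed by -2.13 between Bur-0 and C24, 2.61 between Bur-0 and Kro-0, -1.15 between Bur-0 and Ler-1, 4.73 between C24 and Kro-0, 0.97 between C24 and Ler-1 and -3.76 between Kro-0 and Ler-1. TOC1 was higher than in Kro-0 by 1.70 in Bur-0 and 2.24 in C24, and Kro-0 differed from Ler-1 by -2.04. GI was higher than in Kro-0 by 1.29 in Bur-0 and 0.90 in C24, and Kro-0 differed from Ler-1 by -1.31. ELF3 was higher by 1.16 in C24 than in Kro-0 and differed by -0.97 between Kro-0 and Ler-1. PRR7 was higher in Bur-0 than in C24 by 0.64 and differed by -0.78 between C24 and Kro-0 and by -0.44 between C24 and Ler-1. The comparisons called 22.3% of all genes for Bur-0 and C24, 19.7% for Bur-0 and Kro-0, 29.0% for Bur-0 and Ler-1, 21.8% for C24 and Kro-0, 18.5% for C24 and Ler-1 and 24.3% for Kro-0 and Ler-1.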

How the results depend on the processing

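No called value of the 5 genes reversed under the alternatives run. Counts of called events or levels of these genes moved as follows, and the causes were not tested unless named. For splicing in Bur-0 the 1 call (GI) became 0 with DESeq2, 0 with limma on PSI, 2 in the fit of the full pair list, which holds the TOC1 intron, and 0 without any 1 replicate. In the full pair list the 2 calls became 1 with limma and 1 without any 1 replicate. With limma on PSI splicing calls went from 0 to 2 in Kro-0 and from 1 to 2 in Ler-1. Without 1 replicate, level calls ranged from 0 to 1 in Bur-0 (0 without Col-0 replicate 1 or Bur-0 replicate 1), from 1 to 3 in C24, from 0 to 1 in Ler-1 (1 without Col-0 replicate 1) and from 0 to 1 in Col-0 x Kro-0 (COR27, without hybrid replicate 1).

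Over all events, splicing calls in Bur-0, C24, Kro-0 and Ler-1 were 460, 303, 263 and 358. DESeq2 gave 306, 227, 174 and 220, limma 300, 277, 235 and 220, and leaving out 1 replicate, which leaves fewer libraries, from 131 to 322. In the full pair list 507 calls became 167 with limma and 116 to 221 without 1 replicate. Level calls of 382, 410, 393 and 361 became 161 to 370 without 1 replicate. Hybrid splicing calls were 3 to 11 and ranged from 0 to 28, and hybrid level calls of 8, 1, 61 and 65 ranged from 0 to 91.

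Deviations of same-numbered libraries of different groups were correlated at -0.16 to 0.30 for PSI (median 0.05, 13 of 36 over 0.1). For levels the correlations were -0.21 to 0.41 (median 0.09, 16 of 36 over 0.1). Some groups thus deviated together, and whether the replicate numbers mark a shared batch or harvest was not tested. The main fits held no replicate block. With a replicate block the PRR7 call in C24 was lost (adjusted p = 0.0513, edgeR), the level calls in Col-0 x Ler-1 went from 0 to 1, and no other call of the 5 genes changed in the comparisons with Col-0 or the mid-parent. Depth limited Kro-0 and Col-0 x Kro-0 for COR27, with 7 reads at the acceptor pair in 1 library, and the inner sites of ELF3.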
